A study of Homo sapiens with 12 samples.

Results

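The BCL2 family sets the threshold for mitochondrial apoptosis, and 10 of its genes were followed here among the 28008 genes in the deposited tables. They are the rows of the tables that carry these 10 gene symbols, a choice made with earlier results of these data known. The 3 pro-survival members are BCL2, BCL2L1 (BCL-XL) and MCL1, and the 7 pro-death members are the effectors BAX and BAK1 and the BH3-only genes BCL2L11 (BIM), PMAIP1 (NOXA), BBC3 (PUMA), BID and BAD. The RNA came from the QGP-1/tet-MUC1shRNA line and its BON-1 counterpart, 2 established human pancreatic neuroendocrine tumor lines transduced with pLKO-tet-puro, in which DOX switches on a short hairpin against MUC1. QGP-1 cells were grown in RPMI medium and BON-1 cells in DMEM/F-12. In each line 3 cultures received vehicle (0.1% DMSO) and 3 received 500 ng/mL DOX, each for 7 days, which gave 12 libraries in 4 groups. Both treatment groups of a line carry the hairpin vector, the cells were selected with puromycin, and no cloning step is described. No library of a control hairpin with DOX is among the 12, so DOX itself and MUC1-C silencing cannot be told apart.

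BAX and BAK1 are the proteins that open the outer mitochondrial membrane and let cytochrome c escape. The pro-survival proteins hold them in check, and BH3-only proteins either occupy the pro-survival proteins or engage the effectors directly. The BH3-only proteins differ in their partners: BIM and PUMA bind the pro-survival members broadly, NOXA binds chiefly MCL1, and BAD binds BCL2 and BCL-XL but not MCL1. BID is cut by caspase-8 and so ties death receptors to mitochondria. MCL1 and NOXA are short-lived proteins whose amount is also set by degradation, which an mRNA measurement does not see.

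The DNA just ahead of the transcription start is shown for the 3 members that were lower with DOX in BON-1 cells in every fit that left out 1 library, BAX, PMAIP1 and BID. The same stretch is shown for BCL2L11, which was higher in QGP-1 cells. The sequences are the RefSeq GRCh38.p14 windows, which hold 250 bases before the RefSeq start, cut back to bases that lie in no annotated exon. They are written 5′ to 3′ on the strand of the gene, and capitals mark a match to 1 of 4 motifs on either strand. The motifs, picked after the sequences had been read, are the E-box CACGTG, the CRE core TGACGT, the FOXO site GTAAACA and the GC box GGGCGG, whose matches can overlap one another.
BAX, chr19:48954625-48954814, plus strand: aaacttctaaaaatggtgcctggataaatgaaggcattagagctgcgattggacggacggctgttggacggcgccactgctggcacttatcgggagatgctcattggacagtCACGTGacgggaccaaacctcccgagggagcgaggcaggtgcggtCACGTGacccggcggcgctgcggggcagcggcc
PMAIP1, chr18:59899746-59899995, plus strand: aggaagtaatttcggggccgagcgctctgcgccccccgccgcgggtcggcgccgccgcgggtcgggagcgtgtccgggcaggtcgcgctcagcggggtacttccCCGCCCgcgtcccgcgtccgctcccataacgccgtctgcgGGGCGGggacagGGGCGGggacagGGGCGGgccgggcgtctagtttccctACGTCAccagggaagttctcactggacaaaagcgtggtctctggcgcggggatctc
BID, chr22:17774771-17774915, minus strand: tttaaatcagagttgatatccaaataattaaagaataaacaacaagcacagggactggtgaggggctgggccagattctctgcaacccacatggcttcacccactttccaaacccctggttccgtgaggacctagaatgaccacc
BCL2L11, chr2:111120664-111120913, plus strand: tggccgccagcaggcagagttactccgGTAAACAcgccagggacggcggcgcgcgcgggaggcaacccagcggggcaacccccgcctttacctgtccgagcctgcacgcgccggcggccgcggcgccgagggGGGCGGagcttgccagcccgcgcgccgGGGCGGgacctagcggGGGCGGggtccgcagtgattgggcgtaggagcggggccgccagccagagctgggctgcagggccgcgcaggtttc
The 190 bases of BAX held 2 E-boxes, a motif found in 4.13% of 34943 windows of that length. The 250 bases of PMAIP1 held 1 CRE core (7.09% of windows) and 4 GC boxes (42.5%), and those of BCL2L11 held 1 FOXO site (2.98%) and 3 GC boxes. The 145 bases of BID held none of the 4. Of members not shown, the 151 bases of BBC3 held 1 E-box, the 233 bases of BAK1 held 2 GC boxes and the 224 bases of BCL2L1 held none. DOX was not followed by a call of any of these members. Since the motifs were picked from the sequences, the shares of windows do not measure enrichment. The matches are a description of the letters and not of any factor bound there. An upstream window was found for 9 of the 10 members, with MCL1 as the exception.

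The members lie on 8 chromosomes of GRCh38 by the GENCODE v44 annotation. The pro-survival genes are at chr18:63123346-63320128 (BCL2), chr20:31664452-31723989 (BCL2L1) and chr1:150560895-150579738 (MCL1), each on the minus strand. BAX is at chr19:48954815-48961798 on the plus strand and BAK1 at chr6:33572547-33580293 on the minus strand. The BH3-only genes are at chr2:111119378-111168444 (BCL2L11, plus), chr18:59899996-59904305 (PMAIP1, plus), chr19:47220822-47232766 (BBC3, minus), chr22:17734138-17774770 (BID, minus) and chr11:64269830-64284704 (BAD, minus). The BCL2L11 stretch shown above lies inside this gene body, whose annotated start is farther upstream than that of RefSeq. BAX and PMAIP1 have no overlapping gene, and BAK1 has 2 named pseudogenes, so its reads may be shared with near copies. MCL1 is overlapped on its own strand by ADAMTSL4-AS1, RN7SL473P and RN7SL600P, and on the opposite strand by ADAMTSL4 and a long noncoding RNA gene. BCL2 has 1 overlapping long noncoding RNA gene on each strand, and BCL2L1 has 2 on the opposite strand. What these overlaps add to the counts was not tested.

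MUC1, the target of the hairpin, was lower with DOX in each line. It ran from 5.65 to 7.19 CPM (a count scaled to the size of its library, with TMM factors set within each line) in QGP-1 vehicle libraries and from 0.705 to 1.04 with DOX. In BON-1 cells it ran from 15.6 to 20.7 CPM with vehicle and from 1.48 to 3.97 with DOX. Total counts per library lay between 38224144 and 50525926 for QGP-1 and between 15981954 and 28484324 for BON-1. Neuroendocrine markers were abundant, with a summed level of 6052 to 7512 CPM over the 11 genes in QGP-1 libraries and 9708 to 15463 in BON-1 libraries. NEUROD1 was at 0 in both QGP-1 groups. Of the 10 markers tested in QGP-1 cells 0 fell and 3 rose (CHGB, SCG3 and PCSK1N, log2 0.34 to 0.63). Of the 11 in BON-1 cells 4 fell, led by CHGA (log2 -1.46), and 3 rose, SCG2 (0.45), SCG3 (0.27) and PCSK1N (0.92). The PCSK1N groups overlapped in QGP-1 cells. Of all genes tested with edgeR, 17.7% fell and 17.3% rose at adjusted p below 0.05 in QGP-1 cells, and 18.3% and 17.0% in BON-1 cells. Markers of other cell types were lower in sum, at no more than 11.3 CPM for fibroblasts, 56.1 for leukocytes, 40.9 for endothelium and 149.1 for acinar cells in any library. Of these genes CD68 (log2 1.00) and LUM (1.01) rose and CPA1 (-1.72) fell in BON-1 cells, LYZ (0.64) rose and COL1A1 (-1.16) fell in QGP-1 cells, and PRSS1 fell in both lines (-1.83 in QGP-1 and -0.75 in BON-1 cells). Their part in the results below was not tested. In bulk RNA, fewer cells that express a gene and less of its RNA per cell cannot be told apart. The labels give replicate numbers alone, and the paper describes triplicate cultures and calls them biologic triplicates. How the cultures were set up is not described further, so p-values measure the spread between these cultures.

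With vehicle, when the hairpin was not induced, the lines differed in the make-up of the family. Levels of different genes were compared as TPM, a measure of transcripts per length in a library, and each member is given as its percent of the summed TPM of the 10 members in its library. In QGP-1 vehicle libraries MCL1 held 40.0% ± 0.2 (SD, n = 3) of the sum, BCL2L1 17.8% ± 0.9 and BAX 12.5% ± 0.6. PMAIP1 followed with 6.91%, BID with 6.01%, BCL2L11 with 5.91%, BAD with 4.63%, BCL2 with 4.55%, BAK1 with 1.52% and BBC3 with 0.193%. The ranges of PMAIP1 and BID overlapped in that order, as did those of BID and BCL2L11 and those of BAD and BCL2.

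In BON-1 vehicle libraries MCL1 held 30.1% ± 1.1 (SD, n = 3), BCL2L1 23.0% ± 0.4 and BAX 18.5% ± 0.3, and PMAIP1 followed with 10.2%. BAK1 came next with 5.35%, ahead of BAD with 4.23%, BCL2L11 with 3.46%, BID with 3.26%, BCL2 with 1.80% and BBC3 with 0.0915%. BCL2L11 and BID were the neighbours whose ranges overlapped. The first 4 members therefore stood in the same order in each line, whereas BAK1 was next to last in QGP-1 cells and directly behind PMAIP1 in BON-1 cells.

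**Figure D1:**
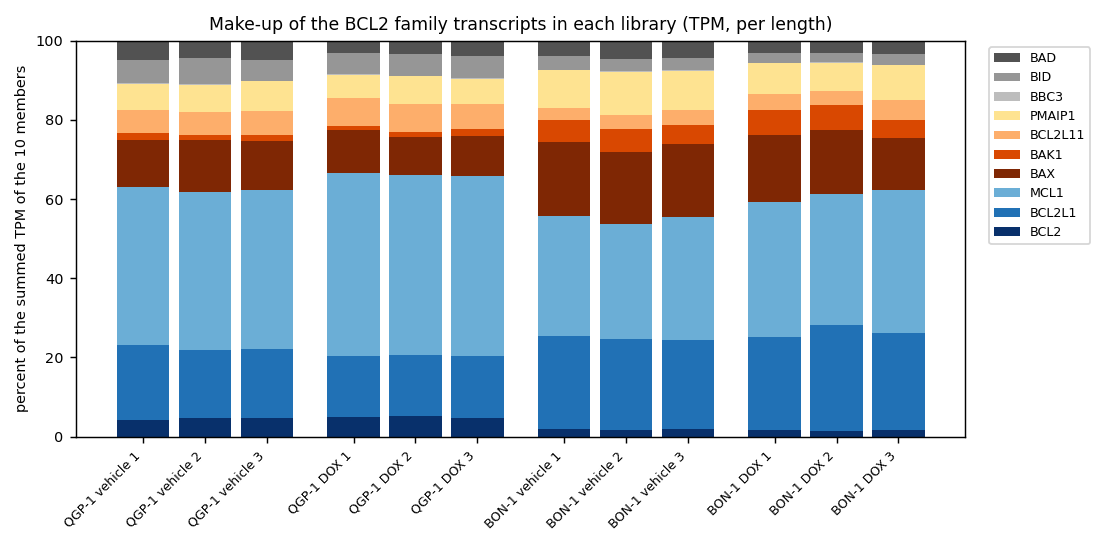
Share of each member in the summed TPM of the 10 BCL2 family members, in percent (vertical axis), for each of the 12 libraries (horizontal axis, by group and replicate number). Blue segments are the pro-survival members, which took 53.7 to 55.7% of the sum in BON-1 vehicle libraries and 59.2 to 62.3% with DOX, and 61.8 to 63.0% and 65.8 to 66.7% in QGP-1 libraries.

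The test of BON-1 vehicle against QGP-1 vehicle, made in 1 edgeR fit of the 12 libraries, called 8 of the 10 members, against 74.9% of the 16598 genes tested. Of the 8, 5 were lower and 3 higher in BON-1 cells, beside 37.5% of genes called lower and 37.5% higher. Groups did not overlap for 9 members, against 77.6% of genes (38.9% lower and 38.8% higher in BON-1 cells). BCL2 was 3.03-fold higher in QGP-1 cells, at 49.1 ± 1.1 CPM against 16.2 ± 1.8 (log2 difference, BON-1 minus QGP-1, -1.60, SE 0.10, adjusted p = 1.69e-13). The BH3-only genes BCL2L11 and BID were 2.06-fold and 2.21-fold higher in QGP-1 cells, with adjusted p = 1.14e-09 and 3.58e-09. MCL1 was 1.59-fold higher there (258.3 ± 6.2 against 162.2 ± 5.8 CPM, adjusted p = 1.84e-09). BAK1 stood the other way, 2.94-fold higher in BON-1 cells at 14.4 ± 1.4 against 4.93 ± 1.00 CPM (log2 1.56, SE 0.18, adjusted p = 2.52e-08).

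For 3 members the called difference was below 1.5-fold. BAX was 1.24-fold higher in BON-1 cells (adjusted p = 0.0164), PMAIP1 1.22-fold higher (adjusted p = 0.0226), and BAD 1.32-fold higher in QGP-1 cells (adjusted p = 0.0356). The call of BAX was lost in 1 of 12 fits that left out a library, that of PMAIP1 in 3 of 12 and that of BAD in 5 of 12. Among the other settings on counts, PMAIP1 lost its call with no filter on low counts (adjusted p = 0.0657), and BAD lost it in 4, with adjusted p up to 0.128. BCL2L1 was called higher in BON-1 cells with library size in place of TMM (adjusted p = 0.0171) but not here (log2 0.11, SE 0.08, adjusted p = 0.230). BBC3, at 0.594 ± 0.178 CPM in QGP-1 and 0.234 ± 0.077 in BON-1 cells, had groups apart and a 2.55-fold higher level in QGP-1 cells but was not called (log2 -1.35, SE 0.69, adjusted p = 0.0795), and it was called with the 6 vehicle libraries alone (adjusted p = 0.0402). Line, medium and library set cannot be told apart in this comparison.

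In QGP-1 cells, DOX was followed by higher transcripts of the pro-survival genes MCL1 and BCL2 and of the BH3-only gene BCL2L11, and no member passed the test in the other direction. These 3 calls of 10 members compare with 35.0% of the 15089 genes tested in either direction, and with 17.3% called higher and 17.7% lower. The share of members called was thus near that of all genes. CPM of the vehicle and DOX groups did not overlap for 5 members, BCL2, MCL1, BCL2L11, BAX and BAD, against 46.7% of all genes tested.

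MCL1, the most abundant member, read 258.5, 246.8 and 250.2 CPM in the vehicle cultures of QGP-1 cells. With DOX it read 320.3, 318.3 and 312.7 CPM. Every DOX culture lay above every vehicle culture, and MCL1 was 25.9% higher (log2 fold change 0.33, SE 0.06, adjusted p = 0.000882 by edgeR). The call held in 6 of 6 fits that left out 1 culture.

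BCL2 read 46.7, 48.0 and 48.9 CPM with vehicle and 57.3, 59.6 and 54.9 with DOX in QGP-1 cells. The groups were apart, and BCL2 was 19.7% higher (log2 0.26, SE 0.08, adjusted p = 0.0159). The call did not survive in 3 of the 6 fits that left out 1 culture, those without the first or the second vehicle culture or without DOX replicate 2, and the highest adjusted p over these fits was 0.0724.

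BCL2L11 encodes BIM, a BH3-only protein, and moved in the same direction as MCL1 and BCL2 but not BCL2L1. It read 59.2, 56.2 and 58.9 CPM with vehicle and 75.6, 75.0 and 68.6 with DOX. The groups did not overlap and BCL2L11 was 25.7% higher (log2 0.33, SE 0.07, adjusted p = 0.00353), a call made in 6 of 6 fits without 1 culture. Its gene body is overlapped on the opposite strand by MIR4435-2HG, and with no strand setting stated for the counting, reads of the 2 genes cannot be told apart where they overlap.

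BCL2L1, the second most abundant member, had overlapping groups in QGP-1 cells, with 99.4, 86.0 and 88.1 CPM under vehicle and 85.7, 88.0 and 86.6 under DOX (log2 -0.07, SE 0.07, adjusted p = 0.501). For BAX the groups were apart, at 20.7, 21.7 and 20.6 CPM with vehicle and 19.7, 17.6 and 18.8 with DOX. The difference did not pass the test (log2 -0.17, SE 0.09, adjusted p = 0.192). BAD, which joins growth factor signalling to BCL2 and BCL-XL through its phosphorylation, read 7.61, 6.66 and 7.27 CPM with vehicle and 5.16, 5.93 and 6.51 with DOX. It did not pass either (log2 -0.29, SE 0.15, adjusted p = 0.137).

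For the other 4 members the QGP-1 groups overlapped. The log2 fold change was 0.07 (SE 0.19) for BAK1, 0.03 (SE 0.11) for PMAIP1 and 0.01 (SE 0.10) for BID, with adjusted p of 0.814, 0.882 and 0.972. BBC3, the p53 target PUMA, had few reads, with 27, 28 and 19 counts under vehicle and 23, 23 and 15 under DOX. At that depth its difference could not be shown in either direction (log2 -0.29, SE 0.47, adjusted p = 0.669).

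**Figure D2:**
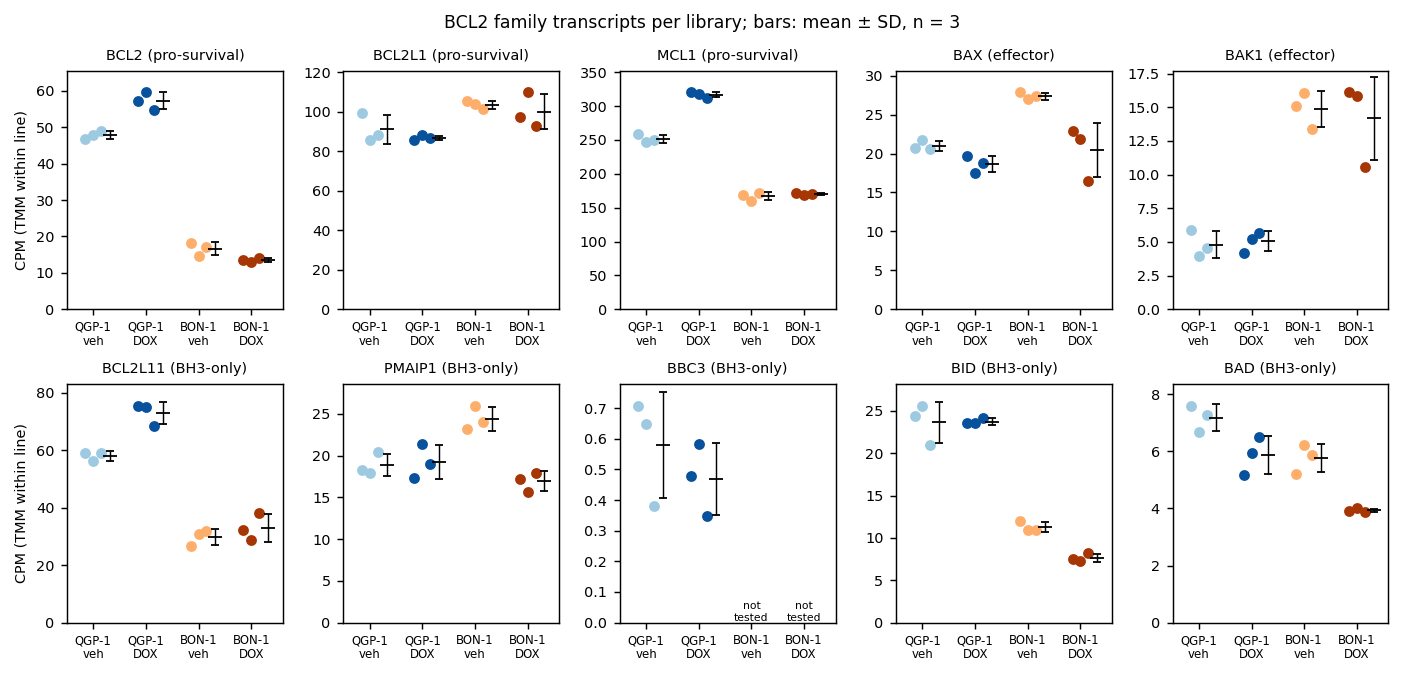
CPM scaled by TMM within each line (vertical axis, linear from 0) for the 10 BCL2 family members in the 4 groups (horizontal axis; veh, vehicle), with 1 point per library and black bars for the mean ± SD of 3 libraries. MCL1, BCL2 and BCL2L11 sit higher with DOX in QGP-1 cells, and BAX, PMAIP1, BID and BAD sit lower with DOX in BON-1 cells, and since the scaling is within a line the panels are to be read within a line.

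In BON-1 cells, DOX was followed by lower transcripts of 4 pro-death genes, the effector BAX and the BH3-only genes PMAIP1, BID and BAD, and no member passed the test upwards. BBC3 was below the filter on low counts, so 9 of the 10 members were tested. The 4 calls of 9 compare with 35.3% of 14625 genes called in either direction with 18.3% called lower and 17.0% higher. The CPM groups did not overlap for 5 members, the 4 called ones and BCL2, against 46.3% of genes tested and 23.9% with the DOX group lower.

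PMAIP1 encodes NOXA, the BH3-only partner of MCL1. It read 23.2, 26.0 and 24.0 CPM in the vehicle cultures of BON-1 cells and 17.2, 15.7 and 18.0 in the DOX cultures. The groups stood apart, and PMAIP1 fell by 30.5% (log2 -0.53, SE 0.12, adjusted p = 0.000956 by edgeR).

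BID, the link from caspase-8 to mitochondria, read 12.0004, 10.95 and 10.89 CPM with vehicle and 7.44, 7.28 and 8.19 with DOX. All DOX cultures lay below all vehicle cultures, and BID fell by 32.3% (log2 -0.56, SE 0.16, adjusted p = 0.00732). BAX, the effector, read 27.9, 27.0 and 27.3 CPM with vehicle and 22.9, 21.9 and 16.5 with DOX. It fell by 25.6% (log2 -0.43, SE 0.12, adjusted p = 0.00709). DOX replicate 3 was the lowest culture for BAX, and in its counts this library stood farther from the other DOX cultures (chi-square per gene 22.5 and 17.2) than those did from each other (7.25). The calls of PMAIP1, BID and BAX were made in 6 of 6 fits that left out 1 culture, that one included.

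BAD read 5.22, 6.21 and 5.89 CPM with vehicle and 3.92, 4.004 and 3.87 with DOX, from 61 to 147 counts per library. It fell by 31.8% (log2 -0.55, SE 0.21, adjusted p = 0.0446), the weakest of the 4 calls. It held in 1 of 6 fits without a culture, the one without vehicle replicate 1, and adjusted p was 0.0788 with DESeq2. BAD overlaps GPR137 on the opposite strand.

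BCL2 was nearest to the threshold among the BON-1 members not called. It read 18.1, 14.6 and 17.2 CPM with vehicle and 13.5, 13.1 and 14.0 with DOX. The groups did not overlap (log2 -0.30, SE 0.14, adjusted p = 0.0890), and BCL2 was called lower with library size in place of TMM (adjusted p = 0.0486) and with both lines in 1 fit (adjusted p = 0.0396).

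MCL1 read 168.9, 160.0 and 172.1 CPM with vehicle and 171.3, 168.5 and 170.5 with DOX in BON-1 cells, with overlapping groups (log2 0.03, SE 0.07, adjusted p = 0.809). For BCL2L1 the levels were 105.3, 103.8 and 101.3 CPM against 97.2, 109.9 and 92.8 (log2 -0.05, SE 0.08, adjusted p = 0.666). BAK1 (log2 -0.07, SE 0.15) and BCL2L11 (log2 0.15, SE 0.11) overlapped between groups as well, with adjusted p of 0.746 and 0.332. BBC3 had 6, 4 and 6 counts with vehicle and 5, 4 and 0 with DOX, too few for a comparison.

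**Figure D3:**
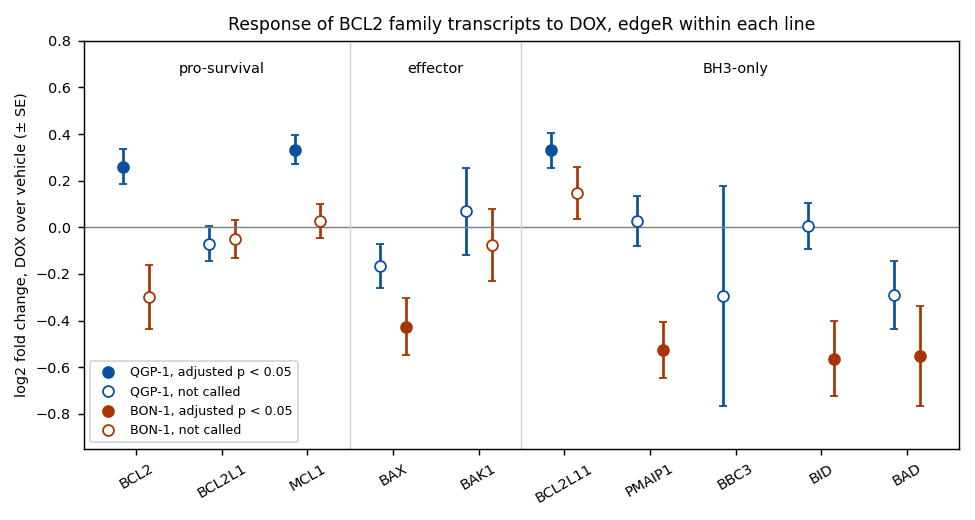
Log2 fold change of DOX over vehicle (vertical axis) with its SE from edgeR for each BCL2 family member (horizontal axis, grouped by role), in QGP-1 cells (blue) and BON-1 cells (brown), filled where adjusted p was below 0.05. The 3 filled QGP-1 points lie between 0.26 and 0.33 and the 4 filled BON-1 points between -0.56 and -0.43.

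Set side by side by role, the members had the following counts and medians in each line. The counts stand beside 17.3% of all genes called higher and 17.7% lower in QGP-1 cells, and 17.0% and 18.3% in BON-1 cells. In QGP-1 cells 2 of 3 pro-survival members and 1 of 7 pro-death members rose, and the median log2 fold change was 0.26 for the pro-survival and 0.01 for the pro-death members, beside -0.01 for all genes tested. In BON-1 cells 0 of 3 pro-survival members passed the test and 4 of the 6 pro-death members tested fell. The medians there were -0.05 and -0.48, beside -0.01 for all genes tested. Among these calls, that of BCL2 in QGP-1 cells held in 3 of 6 fits without 1 culture. That of BAD in BON-1 cells held in 1 of 6. The difference in response between the lines, BON-1 minus QGP-1, had a median of -0.30 over the pro-survival and -0.25 over the pro-death members, so these counts do not show that the roles parted differently in the lines.

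The pro-survival share of the members' summed TPM was higher with DOX in each line. In QGP-1 cells it was 63.0%, 61.8% and 62.3% in the vehicle libraries and 66.7%, 66.2% and 65.8% in the DOX libraries. In BON-1 cells it was 55.7%, 53.7% and 55.5% against 59.2%, 61.4% and 62.3%. The groups did not overlap in either line, and the means differed by 3.86 and 5.97 percentage points. On counts in place of TPM, which gives long transcripts more weight, the differences were 1.51 and 3.04 points. The pro-survival members did not move together. In QGP-1 cells the mean share of MCL1 went from 40.0% to 45.8% and that of BCL2 from 4.55% to 4.96%, while that of BCL2L1 went from 17.8% to 15.5%. In BON-1 cells MCL1 went from 30.1% to 34.4%, BCL2L1 from 23.0% to 24.9% and BCL2 from 1.80% to 1.64%. No pro-survival member was called in BON-1 cells, where 4 pro-death members were called lower. A share is a sum over chosen members and carries no test here.

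The ratio of a pro-survival transcript to a partner within the same library shows which pairs moved. The TPM of MCL1 over that of PMAIP1 went from 5.81 ± 0.44 to 7.21 ± 0.78 (SD, n = 3) in the QGP-1 line and from 2.98 ± 0.27 to 4.37 ± 0.28 in BON-1 cells, with no overlap between groups in either line. MCL1 itself was the member called in QGP-1 cells, and PMAIP1 the one called in BON-1 cells. BCL2 over BAX went from 0.365 ± 0.014 to 0.493 ± 0.044 in QGP-1 cells, without overlap, whereas the BON-1 groups overlapped at 0.0973 ± 0.0091 and 0.109 ± 0.024. BCL2L1 over BAX was apart in BON-1 cells (1.25 ± 0.02 against 1.64 ± 0.23) and overlapped in QGP-1 cells (1.43 ± 0.14 against 1.53 ± 0.11). BCL2L11 over MCL1, both called higher in QGP-1 cells, was 0.148 ± 0.003 with vehicle and 0.148 ± 0.006 with DOX. These ratios repeat the levels given above in another form and were not tested.

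Whether a member responded differently in the 2 lines was asked by the interaction term of line and DOX, and 4 of the 10 members passed, against 16.7% of 16598 genes. All 4 differences were toward a lower value in BON-1 cells, a direction called for 7.92% of genes, with 8.8% called in the other. BCL2 differed by -0.55 on the log2 scale (SE 0.14, adjusted p = 0.00769), being higher with DOX in QGP-1 cells and listed at -0.30 without a call in BON-1 cells. BID differed by -0.56 (SE 0.17, adjusted p = 0.0253) and PMAIP1 by -0.54 (SE 0.16, adjusted p = 0.0229), both of them lower in BON-1 cells and near 0 in QGP-1 cells. MCL1 differed by -0.30 (SE 0.09, adjusted p = 0.0317). The BCL2 difference passed in 12 of 12 fits that left out a library, that of BID in 10, and those of MCL1 and PMAIP1 in 9 each.

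BAX, BAD and BCL2L11 were called in 1 line, but their difference between lines did not pass. It was -0.25 (SE 0.16, adjusted p = 0.313) for BAX, -0.25 (SE 0.24, adjusted p = 0.536) for BAD and -0.17 (SE 0.14, adjusted p = 0.447) for BCL2L11. Their response was therefore not shown to be particular to a line.

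Around the members, 8 lists of 81 genes were read from the same fits. In the QGP-1 line 13 of 72 tested genes fell and 22 rose, a share called of 48.6% beside 35.0% of all genes. In BON-1 cells 10 of 74 fell and 8 rose, or 24.3% beside 35.3%. Each count below stands beside 17.7% of all genes called lower and 17.3% higher in QGP-1 cells, and 18.3% and 17.0% in BON-1 cells. Among other genes of the BCL2 family, QGP-1 cells had 4 calls in 10 tested. The BH3-only gene BMF (log2 0.45, adjusted p = 0.00105) and BCL2L15 (log2 1.37, from 0.805 ± 0.294 to 2.10 ± 0.88 CPM) rose, and the mitophagy receptors BNIP3 (log2 -0.51) and BNIP3L (log2 -0.27) fell. In BON-1 cells 1 of 11 was called, the BH3-only gene HRK, which fell by 0.49 on the log2 scale (SE 0.11, adjusted p = 0.000846).

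Downstream of BAX and BAK1, 1 of 8 genes of the apoptosome and caspases fell and 2 rose in QGP-1 cells, and 2 fell and 1 rose in BON-1 cells. CYCS, cytochrome c itself, fell in QGP-1 cells from 749.8 ± 99.97 to 519.5 ± 23.9 CPM (log2 -0.53, SE 0.09, adjusted p = 0.000348). CYCS was also lower in BON-1 cells (log2 -0.26, adjusted p = 0.0180), where the groups overlapped. The initiator caspase gene CASP2 rose in each line (log2 0.45 in QGP-1 and 0.30 in BON-1 cells). CASP9, the caspase of the apoptosome, rose in QGP-1 cells (log2 0.41, adjusted p = 0.0233), and the executioner CASP6 fell in BON-1 cells (log2 -0.27, adjusted p = 0.0389). Among 8 genes for inhibitors of apoptosis and their antagonists, NAIP (log2 0.57), BIRC6 (log2 0.39) and XIAP (log2 0.33) rose and BIRC5, survivin, fell (log2 -0.32) in QGP-1 cells. BIRC3 was the 1 call in BON-1 cells, from 4.33 ± 0.29 to 7.47 ± 0.79 CPM (log2 0.78, SE 0.20, adjusted p = 0.00287).

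Death receptors can act on BID through caspase-8, and their genes were read together with those of adaptors. In QGP-1 cells 3 of 9 fell and 1 rose, and in BON-1 cells 2 of 10 fell and 1 rose. TNFSF10, the ligand TRAIL, fell in each line (log2 -0.59 in QGP-1 and -0.96 in BON-1 cells), and so did the TNF receptor gene TNFRSF1A (log2 -0.42 and -0.32). CFLAR, which blocks caspase-8, rose in QGP-1 cells (log2 0.32, adjusted p = 0.00719).

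PMAIP1, BBC3 and BAX are textbook targets of p53, and 16 other such targets were read beside them. In QGP-1 cells 4 of 15 tested fell and 3 rose, and in BON-1 cells 2 fell and 1 rose. TP53INP1 fell in QGP-1 cells from 26.0 ± 1.0 to 10.9 ± 1.4 CPM (log2 -1.25, SE 0.11, adjusted p = 2.50e-06) and in BON-1 cells by 0.52 on the log2 scale. TP53I3 rose (log2 0.68) and SESN1 fell (log2 -0.52) in QGP-1 cells. CCNG1 fell in each line (log2 -0.49 with adjusted p = 5.74e-05 in the QGP-1 line, log2 -0.71 with adjusted p = 2.56e-08 in BON-1), and its response was not shown to differ between them (adjusted p = 0.162). CDKN1A, the cell cycle inhibitor p21, rose in BON-1 cells (log2 0.24, adjusted p = 0.0410). By the interaction test of edgeR the responses of TP53INP1 (0.74, adjusted p = 0.00171) and SESN1 (0.59, adjusted p = 0.0402) did differ between the lines. Those of TP53I3 (-0.60, adjusted p = 0.028) and CDKN1A (0.43, adjusted p = 0.0480) differed as well. The list moved in both directions in each line, with medians of 0.05 and -0.03.

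Of 9 genes for transcription factors known to act on members, FOXO1, a factor for BCL2L11, rose in each line. It rose by 0.32 on the log2 scale in QGP-1 cells (SE 0.09, adjusted p = 0.00970) and by 0.61 in BON-1 cells (SE 0.08, adjusted p = 3.45e-07), where BCL2L11 was not called. FOXO3 was not called by edgeR in QGP-1 cells (log2 0.12, adjusted p = 0.281) or in BON-1 cells (log2 -0.05, adjusted p = 0.679). Whether FOXO1 acts on BCL2L11 here was not tested. STAT3 rose in QGP-1 cells and fell in BON-1 cells (log2 0.24 and -0.21), STAT5B rose in both, E2F1 fell in QGP-1 cells (log2 -0.52) and TP73 fell in BON-1 cells (log2 -0.56). Of 6 tested genes that control the turnover of MCL1 and BH3-only proteins, 5 rose in QGP-1 cells, where 17.3% of all genes were called higher. They were the ubiquitin ligase genes HUWE1 (log2 0.31), FBXW7 (0.34), BTRC (0.46) and FBXO7 (0.28) and the deubiquitinase gene USP9X (0.21). In BON-1 cells 1 of 6 rose, the ligase gene MARCH5 (log2 0.37, SE 0.09, adjusted p = 0.00215), where 17.0% of all genes were called higher. The response of 1 of the 6, BTRC, differed between the lines. Among 7 mitochondrial partners, VDAC3, a channel of the outer membrane, fell in each line (log2 -0.41 and -0.32), and DNM1L, the fission GTPase, rose in each (log2 0.21 and 0.22).

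**Figure D4:**
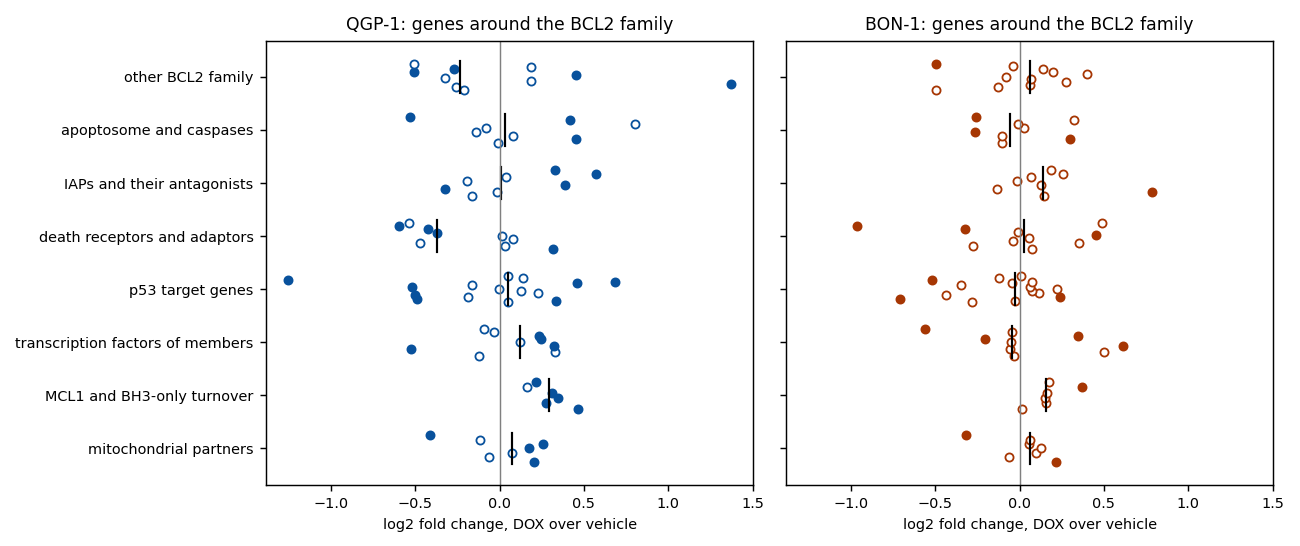
Log2 fold change of DOX over vehicle (horizontal axis, the same scale in both panels) for each tested gene of the 8 lists around the BCL2 family (vertical axis), in QGP-1 cells (left) and BON-1 cells (right). Filled points had adjusted p below 0.05 by edgeR and black lines are list medians, with 35 of 72 points filled in QGP-1 cells and 18 of 74 in BON-1 cells, beside 35.0% and 35.3% of all genes called.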

How the data were processed

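RNA was extracted with RNeasy Plus, libraries were made with TruSeq Stranded mRNA, and the authors aligned reads with STAR to GRCh38. The counting program, its strand setting and its handling of reads with several matches are not given in the sources used here. The authors deposited, for each line, raw counts per gene and a table of TPM, in which 1 count of a member was worth the same in each library of a line up to the scaling (CV at most 0.0469%). The authors used DESeq2. Here the deposited counts were tested over all genes of a line with edgeR 4.0.16 (R 4.3.3; filterByExpr, TMM, quasi-likelihood F test, Benjamini-Hochberg), with 0.05 as the limit for the adjusted p. SE is the absolute log2 fold change over the square root of F. The interaction and the comparison of vehicle groups came from 1 fit of the 12 libraries. Alternatives were DESeq2 1.42.0, other normalizations, filters and sample sets, limma 3.58.1 on log2(TPM + 1) or log2(TPM + 0.1), a replicate block, and leaving out each library. With 3 against 3 an exact two-sided permutation test cannot go below 0.1, so no single-value p is given. No library was a copy of another (chi-square per gene 5.92 to 29.7 between replicates). Named are all 10 members, MUC1, up to 3 called genes of each list and line with the largest change, and others where a count of 5 or fewer needs them. FOXO3 is named beside FOXO1. Members, lists and tests were chosen with earlier results of these data known. MARCHF5 was matched by its older symbol MARCH5. Gene positions and overlaps are from GENCODE v44 on GRCh38. The code was tested on simulated data. Counting error was not small for every member. BBC3 had at most 28 counts in a library. Counts went down to 61 for BAD and 116 for BID in BON-1 DOX replicate 1, and to 172 for BAK1 in QGP-1 vehicle replicate 2.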

Additional observations from a re-analysis of the deposited data

Results flagged for a closer look

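The responses of 4 members to DOX differed between the lines by the interaction test of edgeR. On the log2 scale, BON-1 minus QGP-1, the difference was -0.55 for BCL2 (adjusted p = 0.00769), -0.30 for MCL1 (adjusted p = 0.0317), -0.54 for PMAIP1 (adjusted p = 0.0229) and -0.56 for BID (adjusted p = 0.0253). BCL2 and MCL1 were called higher in QGP-1 cells and not called in BON-1 cells, and PMAIP1 and BID were called lower in BON-1 cells and not called in QGP-1 cells. Of 12 fits that each left out 1 library, the BCL2 difference passed in 12, that of BID in 10, and those of MCL1 and PMAIP1 in 9 each. The MCL1 call was lost without QGP-1 vehicle replicate 2, QGP-1 vehicle replicate 3 or QGP-1 DOX replicate 2 (adjusted p up to 0.0741). That of PMAIP1 was lost without BON-1 vehicle replicate 2, QGP-1 vehicle replicate 2 or QGP-1 DOX replicate 2 (up to 0.0812), and that of BID without BON-1 vehicle replicate 1 or QGP-1 vehicle replicate 3 (up to 0.0704). Dixon's test for a single outlying sample was not run, since it is set here for groups of at least 4.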

How the results depend on the processing

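With counts, the direction of each called member was the same under each alternative tried. On deposited TPM, RN7SK, RN7SL1 and RN7SL2 took 50.9 to 80.3% of a library's total, and over all genes the log2 fold change had a median at log2(TPM + 1) of 0.59 in QGP-1, -0.31 in BON-1, -0.88 for the interaction and 1.09 between the vehicle groups, so these fits carry that shift. Members called were then 9 in QGP-1 cells (7 with no filter), 0 in BON-1 cells and 9 for the interaction (8 with no filter), also at log2(TPM + 0.1). Of all genes at log2(TPM + 1), 91 of 10561 were called lower and 9166 higher in QGP-1 cells. In BON-1 cells 229 of 11954 were lower and 29 higher, and for the interaction 8060 of 11822 were lower and 54 higher. With no filter, 156 of 21382 were lower and 10140 higher in QGP-1 cells, and for the interaction 6372 of 22297 lower and 74 higher. At log2(TPM + 1), log2(TPM + 0.1) and log2(TPM + 1) with no filter, the pro-survival medians were 0.79, 0.97 and 0.79 in QGP-1 and -0.40, -0.42 and -0.40 in BON-1 cells, and the pro-death medians 0.56, 0.74 and 0.51, and -0.70, -0.84 and -0.68. Signs that turned at log2(TPM + 1) and log2(TPM + 0.1) were, in QGP-1 cells, BCL2L1 0.62 and 0.67, BAX 0.51 and 0.56, BAD 0.34 and 0.43, and BBC3 0.0497 (no filter only). In BON-1 cells MCL1 turned to -0.33 and -0.34 and BCL2L11 to -0.17 and -0.22, and in the interaction BCL2L1 turned to -1.02 and -1.08. Between the vehicle groups MCL1 turned to 0.69 and 0.71, BCL2L11 to 0.28 and 0.33, BID to 0.19 and 0.23, BAD to 0.78 and 0.96, and BBC3 to 0.0016 (no filter only). BCL2 (-0.16 at log2(TPM + 1)), BCL2L11 and BID lost their calls there. On counts, BAD lost its call between the vehicle groups with library size only, no filter, at least 10 counts in every library or the 6 vehicle libraries alone. With library size only, MCL1 in BON-1 was -0.0183 and the BCL2L1 interaction -0.0406.

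Without 1 library, members called ranged from 2 to 4 for the interaction, with 2 left without QGP-1 vehicle replicate 2, QGP-1 vehicle replicate 3 or QGP-1 DOX replicate 2. Log2 values of members not called that changed sign ranged in QGP-1 cells from -0.0502 to 0.234 for BAK1, -0.0539 to 0.104 for PMAIP1 and -0.0760 to 0.0666 for BID, in BON-1 cells from -0.0109 to 0.0388 for MCL1 and -0.182 to 0.0825 for BAK1, and in the interaction from -0.0890 to 0.0699 for BCL2L1, -0.883 to 0.426 for BBC3 and -0.308 to 0.0204 for BAK1. The pro-survival share by counts differed by 1.51 points in QGP-1 and 3.04 in BON-1 cells. Same-numbered vehicle and DOX libraries deviated with correlations of -0.130, 0.211 and 0.143 in QGP-1 and -0.086, -0.050 and 0.136 in BON-1 cells. Different-numbered libraries ranged from -0.412 to 0.288 in QGP-1 and from -0.172 to 0.196 in BON-1 cells. No pairing by number was seen, but so few pairs with that spread cannot exclude it. With the replicate block the call of BAD in BON-1 cells (adjusted p = 0.0561, edgeR) and the MCL1 interaction (adjusted p = 0.0522) were lost, and no other member changed its call. The cause of these changes was not tested, apart from the share of the RN7 transcripts given above.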

Other observations

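Some genes around the family differed in response between the lines as well, in a test that called 16.7% of all genes. Lower and higher calls were 0 and 2 of 11 for the other BCL2 family and 2 and 3 of 15 for p53 targets. Death receptors had 1 and 1 of 10, and transcription factors 1 and 1 of 9. The lower death receptor call was TNFRSF10D (interaction -5.04, SE 1.28). It was below the filter on low counts in QGP-1 cells and not called in BON-1 cells (log2 -0.01). The apoptosome list had 1 and 0 of 8, inhibitors of apoptosis 0 and 1 of 8, and mitochondrial partners 0 and 0 of 7. The apoptosome call was CASP8, which stood at 0.586 ± 0.247 CPM in QGP-1 vehicle libraries and was not called within either line. The genes below are a part of those called. TNFRSF10B, the TRAIL receptor DR5, fell in QGP-1 cells (20.8 ± 1.0 to 16.1 ± 0.8 CPM, log2 -0.37, adjusted p = 0.00906 by edgeR) and rose in BON-1 cells (46.3 ± 2.7 to 63.5 ± 1.8 CPM, log2 0.45, adjusted p = 0.000164), and the interaction was 0.83 on the log2 scale (adjusted p = 7.63e-05). STAT3 also moved in opposite directions, with an interaction of -0.44 (adjusted p = 0.00767). BIRC3 had an interaction of 0.81 (adjusted p = 0.00333), BNIP3 of 0.71 (adjusted p = 0.000448) and E2F1 of 0.48 (adjusted p = 0.0153). In the turnover list BTRC was the 1 gene of 6 whose response differed between the lines, by -0.44 (adjusted p = 0.0174).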
